A study of Mus musculus with 4 samples.

Results

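The endothelin system is a set of peptide hormones, their receptors and the proteases that make the active peptides. Its 7 members on the array, Edn1, Edn2, Edn3, Ednra, Ednrb, Ece1 and Ece2, were taken by gene name and are read by 15 probes, out of 27827 gene names and 41174 probes. The set was chosen by the genotype contrast itself, because Edn1 was measured on every array and lay higher in both knockout lines, so the genotype differences of the 7 genes are given below as a description and without a test.

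The study asked how gene expression changes in mouse embryonic fibroblasts (MEFs) that lack Ip6k1, which encodes an enzyme that makes inositol pyrophosphates. The 4 lines, 2 Ip6k1+/+ and 2 Ip6k1-/-, each came from a separate E14 embryo of 1 litter of heterozygous parents, and the RNA of each was read on 1 single-colour array of the same slide and scan. All 4 lines had been immortalised with SV40 large T antigen and were harvested while growing exponentially. A line therefore stands for 1 embryo and 1 immortalised culture, the replicate numbers of the labels do not state a pairing of lines, and differences between lines of the same genotype enter every comparison. Signals are given as log2 of the background-corrected spot signal minus the 75th percentile of that array, so that 0 marks the 75th percentile. A probe is called well above background where the extraction software set that flag, and between 21405 and 22859 probes carried it on an array. A probe entered the comparisons, 21573 in all, if it was well above background in both lines of at least 1 genotype. The fold rule used here asks for a mean log2 difference of at least 1 and for each Ip6k1-/- line to lie at least 0.9 from the Ip6k1+/+ mean on the same side.

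Endothelins are short vasoactive peptides that are cut from longer precursors, first by furin-type convertases and then by the endothelin converting enzymes, metalloproteases encoded by Ece1 and Ece2. They act on G protein-coupled receptors: the type A receptor, encoded by Ednra, prefers endothelin-1 and endothelin-2 and couples to phospholipase C and calcium release, whereas the type B receptor, encoded by Ednrb, binds all endothelins. Endothelial cells are the best known source of endothelin-1, and in fibroblasts the peptide is known for promoting contraction, matrix synthesis and myofibroblast differentiation.

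The 7 probes that entered the comparisons are shown here by their first 30 bases, so that probes of the same gene, which gave different values, can be told apart. They are written 5′ to 3′ in lower case, and each is 60 bases long.
Edn1 A_51_P115005: cagtaaaaatatgttcccgtatgtattgta
Ednra A_52_P156190: ggccctggtaactctactgggcattttccc
Ednra A_52_P622988: gtagcaattatccctgactgacagtagtgt
Ece1 A_52_P635278: ttttttgtattattgtgttttgtgctactg
Ece2 A_51_P494122: aaatccagaggtcttgtgcataaaacagtg
Ece2 A_51_P505472: caatggactccagaacctgggggaaaacat
Ece2 A_52_P271572: ttcatgtgtcaccctggagggagtctaggc
In the mm9 coordinates of the array files, the Edn1 probe lies at chr13:42403101-42403160 on the plus strand. The Ednra probes lie at chr8:80186985-80187044 for A_52_P156190 and chr8:80193730-80193789 for A_52_P622988, both on the minus strand. The Ece1 probe lies at chr4:137521065-137521124 on the plus strand. The probes under the name Ece2 lie at chr16:20618852-20618911 for A_51_P494122, chr16:20644268-20644327 for A_51_P505472 and chr16:20645512-20645571 for A_52_P271572, all on the plus strand. Exon and UTR boundaries in mm9 were not analysed here.

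Of the 15 endothelin probes, 4 were well above background in all 4 lines, 4 in some lines and 7 in none. The 4 genes Edn1, Ednra, Ece1 and Ece2 had a probe that entered the comparisons, while Edn2, Edn3 and Ednrb had none. By the fold rule, 1 of the 7 probes entered was higher in Ip6k1-/- MEFs and 0 were lower. Over all 21573 probes, 229 (1.06%) were higher and 404 (1.87%) were lower by the same rule, and nothing is read from the members' count because that contrast chose them. With limma and Benjamini-Hochberg adjustment, 3 probes (0.0139%) passed an adjusted p of 0.05, 0 of them higher and 3 lower in Ip6k1-/- MEFs, against 280 higher and 441 lower at an unadjusted p of 0.05. The median log2 difference over all probes tested was 0.05.

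**Figure D1:**
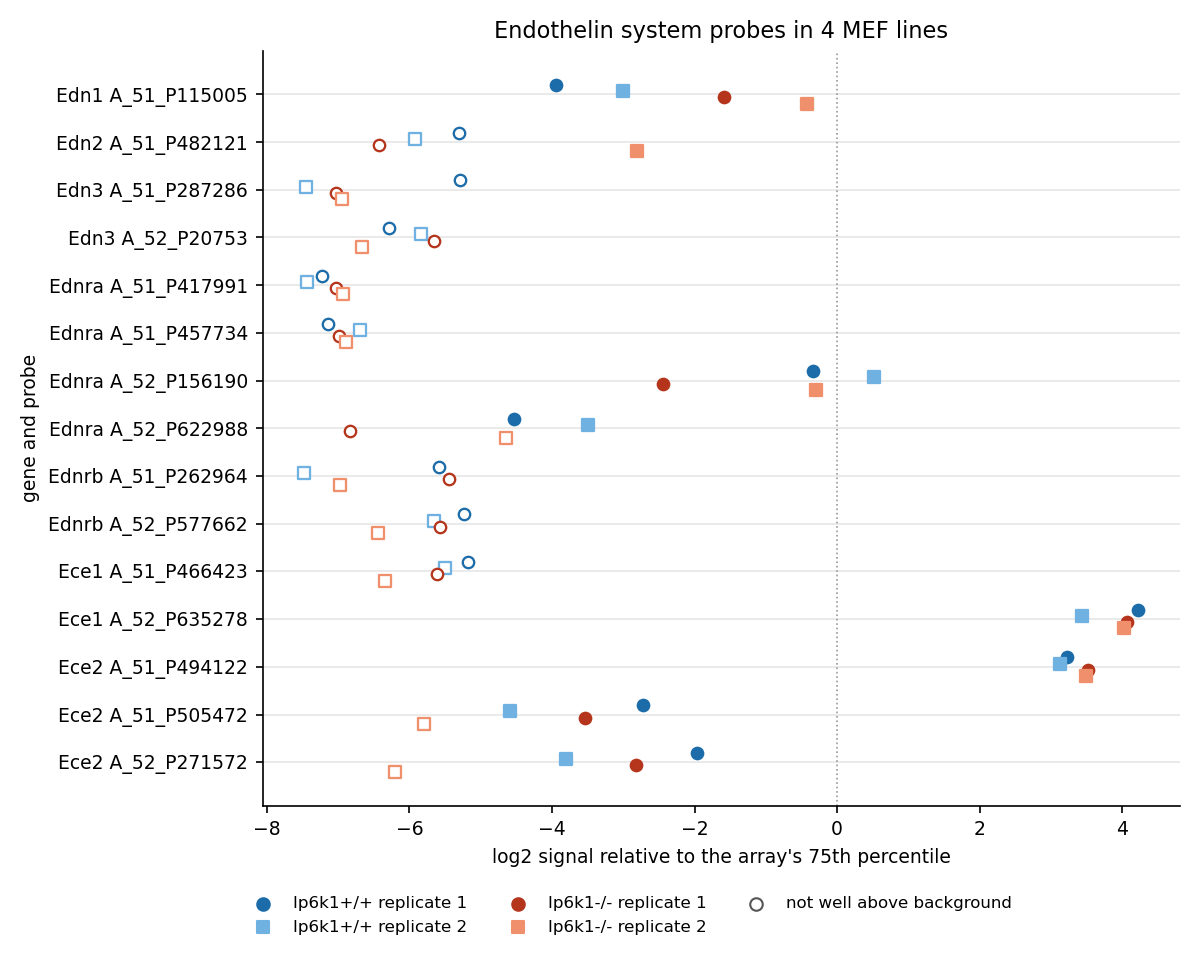
Log2 signal relative to the 75th percentile of each array (x axis) for the 15 probes of the endothelin system (y axis) in the 4 MEF lines, each point being 1 line on 1 array. Filled symbols are well above background and open symbols are not, and all 4 lines are filled only for Edn1, 1 Ednra probe, 1 Ece1 probe and the Ece2 probe A_51_P494122.

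The labels were checked on the targeted gene and on cell type markers. The Ip6k1 probes A_51_P213766 and A_52_P413035 were well above background only in the Ip6k1+/+ lines, where their signal was at least 34.0-fold and at least 32.7-fold higher. For such a bound, the dim genotype is credited with at least the smallest signal that still carried the flag on its arrays. The third Ip6k1 probe, A_51_P103718, was at 2.46 and 2.61 in the Ip6k1+/+ lines and at -1.98 and -1.23 in the Ip6k1-/- lines. Which part of the gene the knockout removes is not given in the sources used here. All 10 fibroblast markers were well above background in every line, with summed signals between 371 and 438 times the 75th percentile, saturated spots included. Smooth muscle markers were well above background for 5 or 6 of 8 genes, neural crest, melanocyte and glia markers for 2 to 4 of 8, and epithelial markers for 1 to 4 of 8. By the fold rule, Pdgfrb and Dcn among the fibroblast markers and Lmod1 among the smooth muscle markers were lower in Ip6k1-/- MEFs, with differences of -1.20, -2.40 and -2.22 (limma adjusted p = 0.798, 0.993 and 0.798). The part of these shifts in the values of the endothelin genes was not tested.

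Edn1, the gene of the endothelin-1 precursor, differed most among the 7 probes that entered the comparisons. Its log2 signal was -3.94 and -3.00 in the Ip6k1+/+ lines, against -1.58 and -0.42 in the Ip6k1-/- lines. Both Ip6k1-/- lines lay above both Ip6k1+/+ lines, with a gap of 1.42 between the nearest lines of the 2 genotypes. The mean was -3.47 ± 0.66 (SD, n = 2 lines) in Ip6k1+/+ and -1.00 ± 0.83 (SD, n = 2 lines) in Ip6k1-/- MEFs, a log2 difference of 2.47 or 5.55-fold. The Ip6k1-/- lines stood 1.89 and 3.06 above the Ip6k1+/+ mean, so that each of them met the fold rule. Ranked by size among the 21573 probes, this difference, for which the set was chosen, was number 20 from the top, as a description only. These are whole cultures, in which more cells with Edn1 RNA and more Edn1 RNA per cell cannot be told apart.

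The Edn1 spot was dim in the Ip6k1+/+ lines. Before background correction, the mean spot brightness was 112 and 164 in Ip6k1+/+ and 268 and 542 in Ip6k1-/- lines, over a local background of 39.0 to 46.0. After correction by the extraction software the signals were 39.7 and 93.2 against 204 and 508. With another background correction (normexp with an offset of 50), the log2 difference was 1.60 or 3.03-fold. The direction and the fold rule call were the same, and leaving out any single line gave log2 differences between 1.89 and 3.06.

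The lines of the same genotype also differed in Edn1, a comparison that the choice of the set did not use. Replicate 2 was above replicate 1 by 0.94 in Ip6k1+/+ and by 1.17 in Ip6k1-/- MEFs. The pooled within-genotype SD of 0.75 was larger than that of 88.1% of the probes tested, whose median was 0.28.

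Edn2, a second ligand of both receptors, was well above background only in Ip6k1-/- replicate 2, at -2.80. The other Ip6k1-/- line was at -6.43 and the Ip6k1+/+ lines were at -5.31 and -5.92, none of them well above background. A single line thus carried the Edn2 signal. Edn3, the ligand best known from enteric neurons and melanocytes, was not well above background on either of its 2 probes in any line, with values from -7.45 to -5.29.

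Ednra, the receptor of endothelin-1 in mesenchymal cells, was measured by 2 of its 4 probes. On probe A_52_P156190 the log2 signal was -0.33 and 0.52 in the Ip6k1+/+ lines, against -2.45 and -0.29 in the Ip6k1-/- lines. The genotypes overlapped by 0.04, since Ip6k1-/- replicate 2 lay between the Ip6k1+/+ lines and only Ip6k1-/- replicate 1 was clearly lower. The means were 0.10 ± 0.60 and -1.37 ± 1.53 (SD, n = 2 lines), a difference of -1.47, and the Ip6k1-/- lines lay at -2.54 and -0.39 from the Ip6k1+/+ mean.

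The second measured Ednra probe, A_52_P622988, was at -4.53 and -3.49 in the Ip6k1+/+ lines. In the Ip6k1-/- lines it read -6.84 and -4.64 and was not well above background, which puts the Ip6k1+/+ MEFs at least 1.61-fold higher. On both probes Ip6k1-/- replicate 1 was the lowest line and Ip6k1+/+ replicate 2 the highest. Neither probe met the fold rule, because Ip6k1-/- replicate 2 lay less than 0.9 below the Ip6k1+/+ mean. The remaining Ednra probes, A_51_P417991 and A_51_P457734, were not well above background in any line and carry no measurement of the receptor. In RefSeq, the transcript of A_51_P457734 belongs to Ednra, as does that of the measured probe A_52_P156190. No RefSeq match was found for A_52_P622988 or A_51_P417991, which are Ednra probes by the name in the array files. Probes of a gene may read different transcript ends or forms, which was not tested.

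Ednrb, the receptor of melanocyte and enteric neuron precursors, stayed below that mark in all 4 lines on both of its probes. Their values ran from -7.48 to -5.23, a range in which genotype differences are not measured.

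Ece1, the main endothelin converting enzyme, was read by probe A_52_P635278 at 4.22 and 3.44 in the Ip6k1+/+ lines and at 4.07 and 4.03 in the Ip6k1-/- lines. The Ip6k1-/- lines lay between the Ip6k1+/+ lines, and the mean difference of 0.22 was smaller than the SD of 0.55 between the Ip6k1+/+ lines. The second Ece1 probe, A_51_P466423, did not rise well above background in the 4 lines.

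Ece2, a related converting enzyme that is best known from neural tissue, had 3 probes under its name. Probe A_51_P505472 was at -2.73 and -4.58 in the Ip6k1+/+ lines and at -3.54 and -5.79 in the Ip6k1-/- lines, the last not well above background. Probe A_52_P271572 was at -1.96 and -3.81 in the Ip6k1+/+ lines and at -2.82 and -6.21 in the Ip6k1-/- lines, the last again not well above background. The genotypes overlapped on both probes, with mean differences of -1.01 and -1.63 that include the dim value. Replicate 1 was above replicate 2 by 1.86 and 2.26 in the Ip6k1+/+ and Ip6k1-/- lines on the first of these probes, and by 1.84 and 3.39 on the second. Without Ip6k1-/- replicate 2 the mean differences turned to 0.12 and 0.070.

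The third probe under the name Ece2, A_51_P494122, differs from these. Its transcript accession belongs to Eef1akmt4, an elongation factor methyltransferase gene, in the RefSeq table of GRCm38.p6, and not to Ece2. It read 3.23 and 3.13 in the Ip6k1+/+ lines, against 3.53 and 3.49 in the Ip6k1-/- lines. Both Ip6k1-/- lines were above both Ip6k1+/+ lines by a gap of 0.26, with a mean difference of 0.33. The other Ece2 probes showed no such order.

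**Figure D2:**
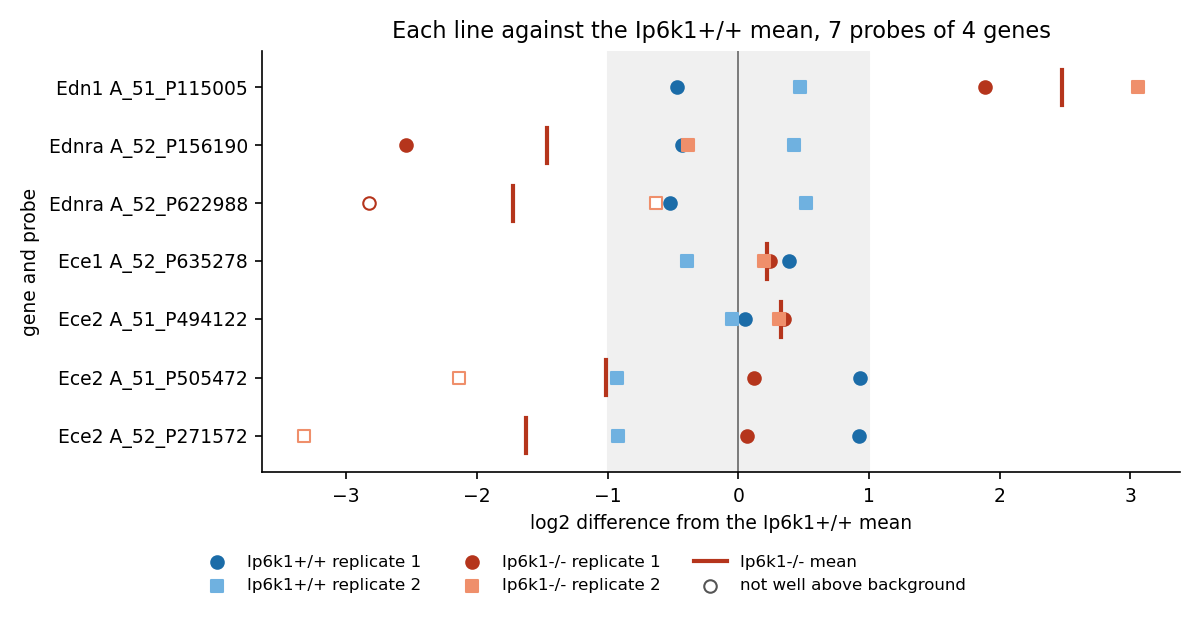
Log2 difference of each line from the Ip6k1+/+ mean of the probe (x axis) for the 7 endothelin probes that entered the comparisons (y axis). Points are single lines, open where not well above background, red bars are Ip6k1-/- means, and the shaded band spans -1 to 1. Both Ip6k1-/- lines lie outside the band on the same side only for Edn1, at 1.89 and 3.06.

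Across the system, no line was the highest or the lowest on every gene. Ip6k1-/- replicate 2 had the highest Edn1 and Edn2 signals of the 4 lines and the lowest on the Ece2 probes A_51_P505472 and A_52_P271572, whereas Ip6k1-/- replicate 1 had the lowest Ednra signal. Within both genotypes, replicate 2 was above replicate 1 on 3 of the 7 probes, those of Edn1 and Ednra. Replicate 1 was above replicate 2 on the other 4, that of Ece1 and those under the name Ece2, of which A_51_P494122 belongs to Eef1akmt4. Over all 21573 probes, replicate 2 was higher within both genotypes on 7567 and replicate 1 on 6025, and the order differed between genotypes on 7981. The difference of the 7 probes from all probes was not tested.

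Genes around the ligand and its receptors were taken from 8 lists, chosen with earlier results of these data known. They hold 123 different genes, of which 92 were tested by their brightest probe that entered the comparisons and 17 were not well above background in any line. By the fold rule, 0 of the 92 were higher and 3 were lower, namely Mme, Il6 and Ramp1. Over all 14335 genes taken in this way, 153 (1.07%) were higher and 299 (2.09%) were lower. None of the 92 passed limma at an adjusted p of 0.05, where 0 were higher and 5 lower at an unadjusted p of 0.05. In 62 of them the genotypes overlapped, in 7 (7.61%) both Ip6k1-/- lines lay above both Ip6k1+/+ lines, and in 23 (25.0%) they lay below. Over all 14335 genes these shares were 18.1% above and 13.2% below. The difference from all genes was not tested. The median difference of the 92 genes was -0.18, beside 0.04 over all genes tested.

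**Figure D3:**
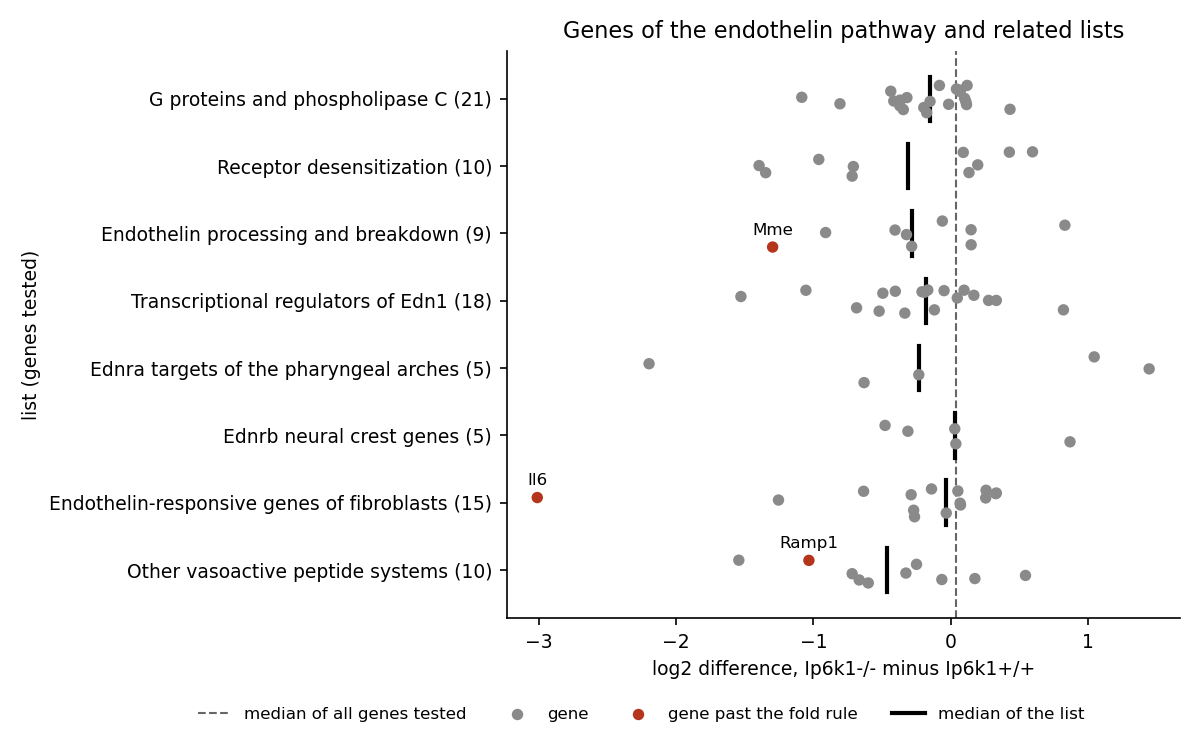
Log2 difference of Ip6k1-/- minus Ip6k1+/+ means (x axis) for the genes tested of 8 lists (y axis, with the number of genes), each point being 1 gene by its brightest probe. Black bars are list medians and the dashed line is the median of all genes tested, 0.04. The labelled red points, Mme, Il6 and Ramp1, are the genes past the fold rule, all lower in Ip6k1-/- MEFs. Saturated genes are included.

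Endothelin processing and breakdown was measured for 9 of 14 genes, of which 0 were higher and 1 was lower by the fold rule (median difference -0.28). Mme, which encodes neprilysin, a membrane protease that degrades endothelin-1, was at -0.16 and -1.20 in the Ip6k1+/+ lines and at -1.98 and -1.97 in the Ip6k1-/- lines. Its difference of -1.30 met the fold rule but not limma (standard error 0.43, adjusted p = 0.993). Furin, which makes the first cut in the precursor, was at 3.25 and 3.29 in the Ip6k1+/+ lines and at 3.59 and 3.26 in the Ip6k1-/- lines. The convertase Pcsk7 (difference -0.06) and the lysosomal carboxypeptidase Ctsa (difference -0.28) were measured in every line. Pcsk6, a further convertase, was at 4.87 and -1.39 in the Ip6k1+/+ lines and at 3.49 and -0.81 in the Ip6k1-/- lines, so that the lines of a genotype lay further apart than the genotype means did.

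G proteins and phospholipase C, through which the receptors signal, were measured for 21 of 22 genes, with 0 past the fold rule in either direction and a median difference of -0.15. Among the brightest genes, Gnai2, Gnai3, Gnas and Itpr3, the differences were -0.41, 0.04, -0.15 and 0.07 (limma adjusted p = 0.993 for each). Itpr2, a calcium release channel singled out after its values were seen, was at 2.36 and 2.34 in the Ip6k1+/+ lines and at 1.63 and 1.45 in the Ip6k1-/- lines (difference -0.81, limma unadjusted p = 0.0113 and adjusted p = 0.993). Receptor desensitization was measured for 10 of 12 genes, again with 0 past the fold rule in either direction and a median difference of -0.31. Arrb1, which encodes the receptor adaptor beta-arrestin 1, was at 1.95 and 1.50 in the Ip6k1+/+ lines and at 0.73 and 0.80 in the Ip6k1-/- lines. The Arrb1 lines of the genotypes did not overlap, and the difference of -0.96 ± 0.25 (standard error) had a limma adjusted p of 0.993. For the receptor kinases Adrbk1 and Grk6 the differences were 0.13 and 0.09, and for the G protein regulator Rgs3 it was -0.72 with overlapping lines.

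Of 19 known transcriptional regulators of Edn1, 18 were measured, with 0 past the fold rule in either direction and a median difference of -0.18. Junb, Jund, Klf2 and Rela, the brightest of them, differed by -0.69, -0.05, -0.33 and -0.17, with overlapping lines in each case. The Junb spot was saturated on 1 array, so that its difference is not exact. Gata2, a factor known to bind the Edn1 promoter and singled out after its values were seen, was at 2.19 and 0.45 in the Ip6k1+/+ lines and at 0.44 and -0.85 in the Ip6k1-/- lines. The genotypes were 0.02 apart at their nearest lines, and the difference of -1.53 had a standard error of 0.74 (limma adjusted p = 0.993). These are RNA levels and not the activity of the factors, and their part in the Edn1 difference was not tested.

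The Edn1 promoter is shown because Edn1 was the only member past the fold rule, and because the regulators above bind known letters. The window of 280 bases, at chr13:42301226-42301505 on the plus strand of GRCm38.p6 (RefSeq), runs from 250 bases before to 30 bases after the annotated start. Capitals mark, on either strand, AGATAA for GATA factors, ACGTG for the core of the hypoxia-inducible factor site and CAGAC for SMAD factors. The letters TGANTCA for AP-1 were searched as well.
Edn1 promoter: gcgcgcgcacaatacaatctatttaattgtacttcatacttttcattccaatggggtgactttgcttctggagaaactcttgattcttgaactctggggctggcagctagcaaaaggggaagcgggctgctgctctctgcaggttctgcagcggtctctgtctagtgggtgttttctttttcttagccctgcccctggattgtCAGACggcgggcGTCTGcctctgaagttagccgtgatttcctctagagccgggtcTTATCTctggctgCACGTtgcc
The window held 1 match to the GATA letters, at bases 9 to 14 after the start, 1 match to the ACGTG letters, at bases 22 to 26, 2 matches to CAGAC and 0 to TGANTCA, none of which overlap. Of all 32851 promoter windows of this length in the table, 10.7% held AGATAA, 18.5% ACGTG, 46.8% CAGAC and 7.46% TGANTCA. RefSeq windows were found for all 7 members, 10 in all, and AGATAA occurred in 1 of them, that of Edn1. ACGTG occurred in 3 windows, of Edn1, Ece1 and Ece2, CAGAC in 7 and TGANTCA in 0. The window was cut from a longer sequence, and bases beyond it and other forms of these sites were not searched. A match describes letters in the window and no binding was measured.

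Genes that endothelins are known to induce in fibroblasts entered the comparisons for 15 of 15, including 3 that were saturated on all 4 arrays. By the fold rule 0 were higher and 1 was lower, and the median difference was -0.03, saturated genes included. Il6, the cytokine interleukin 6, was at -1.46 and -2.33 in the Ip6k1+/+ lines. Its Ip6k1-/- values of -5.02 and -4.80 were not well above background, which puts the Ip6k1+/+ MEFs at least 7.05-fold higher (limma adjusted p = 0.716). Ctgf, a matrix-associated growth factor, was at 6.98 and 5.77 against 6.97 and 6.44, with overlapping lines. Acta2, Col1a1 and Col1a2, the smooth muscle actin and type I collagen genes, were saturated on all 4 arrays, which leaves their difference unmeasured. Col3a1, a further collagen singled out after its values were seen, was at 6.24 and 5.90 in the Ip6k1+/+ lines and at 5.46 and 4.17 in the Ip6k1-/- lines (difference -1.25, limma adjusted p = 0.993).

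A list of genes linked to Ednra in the pharyngeal arches, where endothelin-1 sets the identity of the lower jaw, was measured for 5 of 12. Of these, 0 were past the fold rule in either direction, and the lines overlapped in all 5. Dlx3, Dlx5, Dlx6, Hand1, Hand2, Gsc and Barx1 did not enter the comparisons. Whether the 5 measured genes depend on Ednra was not tested. Dlx2 was at 0.34 and -3.71 in the Ip6k1+/+ lines and at 0.61 and -1.09 in the Ip6k1-/- lines. Msx1 was at 2.65 and -2.75 in the Ip6k1+/+ lines and at 1.64 and -3.00 in the Ip6k1-/- lines. Replicate 1 was above replicate 2 in both genotypes for all 5 genes, which also include Dlx1, Mef2c and Msx2, whereas this held for 29.6% of all genes tested. For these 5 genes the lines of the same genotype were 0.65 to 5.40 apart. The same order of replicates held for 5 of 5 smooth muscle markers and for 1 of 10 receptor desensitization genes. The difference of the list from all genes was not tested.

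Among neural crest genes linked to Ednrb, 5 of 10 entered the comparisons, with 0 past the fold rule in either direction and a median difference of 0.03. Pax3 did not enter, as it was well above background only in replicate 2 of each genotype. It was at -0.44 in Ip6k1+/+ and 0.008 in Ip6k1-/- replicate 2, against -6.90 in replicate 1 of both genotypes. Gdnf, a growth factor for enteric neurons, was at -3.38 and -2.95 in the Ip6k1+/+ lines and at -1.80 and -2.80 in the Ip6k1-/- lines (difference 0.87, limma adjusted p = 0.993). Mitf, a factor of the melanocyte lineage, and Kitl, which encodes the Kit ligand, differed by 0.03 and -0.48. Zeb2, a neural crest factor, differed by -0.31, and the lines overlapped for each of these genes.

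Other vasoactive peptide systems, taken for comparison with the endothelins, were measured for 10 of 20 genes, with 0 higher and 1 lower by the fold rule and a median difference of -0.46. Ramp1, a coreceptor of the calcitonin gene-related peptide receptor, was at -3.58 and -1.83 in the Ip6k1+/+ lines and at -3.62 and -3.86 in the Ip6k1-/- lines. It met the fold rule although Ip6k1+/+ replicate 1 lay only 0.03 above the nearest Ip6k1-/- line (difference -1.03, limma adjusted p = 0.993). Adm, the vasodilator adrenomedullin, was at 2.61 and -0.45 in the Ip6k1+/+ lines and at -1.59 and 0.67 in the Ip6k1-/- lines, which overlap. Ramp2, which pairs with the adrenomedullin receptor, differed by -0.67, and the natriuretic peptide receptors Npr2 and Npr3 by -0.25 and -0.06.

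Since endothelial cells are a source of endothelin-1, their markers are given beside Edn1. Of 10 endothelial markers, 2 or 3 were well above background in a line, and their summed signal was 1.85 and 2.99 times the 75th percentile in the Ip6k1+/+ and 2.91 and 2.81 in the Ip6k1-/- lines. Pecam1, Cdh5, Tie1, Tek, Cldn5, Esam and Emcn, 7 of the 10, were below that mark in all 4 lines. Vwf, which encodes von Willebrand factor, was well above background in Ip6k1-/- replicate 1 alone, at -4.12, and read -5.21 and -6.57 in the Ip6k1+/+ lines and -5.46 in the other Ip6k1-/- line. Egfl7 was measured in every line, at 0.73 and 1.51 in the Ip6k1+/+ lines and at 1.40 and 1.24 in the Ip6k1-/- lines. It differed by 0.20 with overlapping lines. Most of the summed signal in every line came from Egfl7, so that the sum says little of the other markers. Kdr, the main receptor of vascular endothelial growth factor, was at -3.66 and -3.99 in the Ip6k1+/+ lines and at -2.94 and -1.59 in the Ip6k1-/- lines. Its difference of 1.56 ran in the direction of Edn1 with no overlap of the lines (limma adjusted p = 0.993), and did not meet the fold rule since Ip6k1-/- replicate 1 lay less than 0.9 above the Ip6k1+/+ mean. The part of these markers in the Edn1 difference was not tested.

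The 6 genes whose pattern over the 4 lines was most like that of Edn1 were found by the root mean square distance of values centred on each gene's mean, among 13334 genes well above background in every line. They were Akr1c19, an aldo-keto reductase, at a distance of 0.50, Gpr85, an orphan receptor, at 0.52, Mtap1b, a microtubule-associated protein, at 0.53, Ccdc88c, a coiled-coil protein, at 0.54, the unnamed transcript TC1715662 at 0.56 and 2610002D18Rik at 0.60. Akr1c19, the nearest, was at -4.47 and -4.78 in the Ip6k1+/+ lines and at -2.33 and -1.80 in the Ip6k1-/- lines. Gpr85 was at -4.00 and -2.36 in the Ip6k1+/+ lines and at -2.32 and -0.90 in the Ip6k1-/- lines. None of the 6 is a gene of the endothelin lists. The likeness rests on 4 arrays and was found by searching for it.

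**Figure D4:**
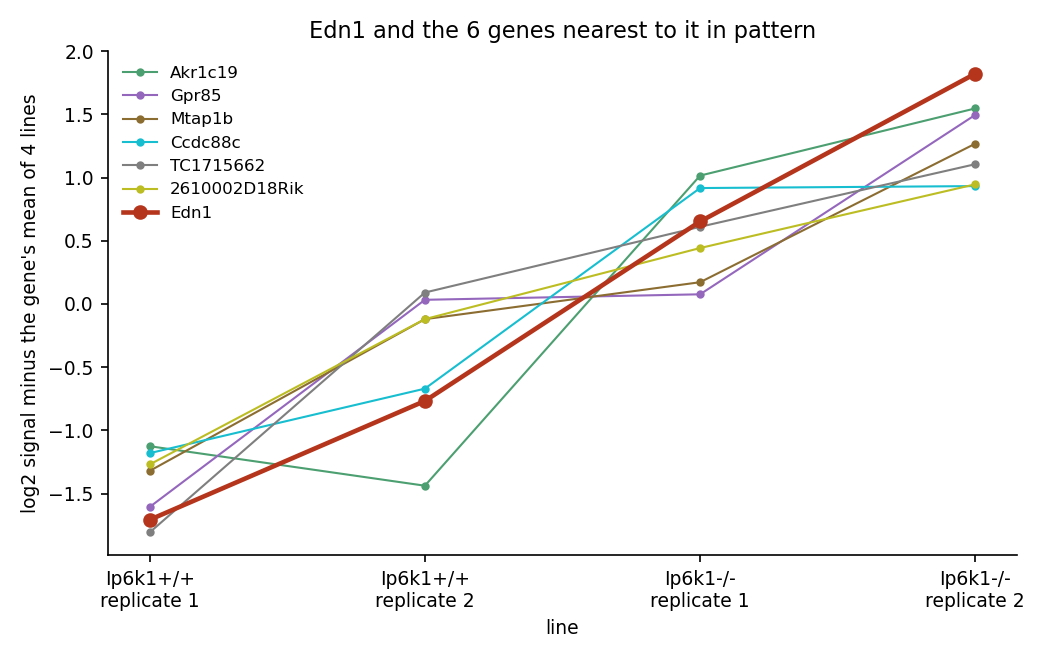
Log2 signal minus the mean of the gene over the 4 lines (y axis) for Edn1 (thick red) and the 6 genes nearest to it among 13334 (thin), by line (x axis). Lines between points join the values of a gene and the replicates of a genotype have no order. Edn1 and the 6 genes were highest in Ip6k1-/- replicate 2.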

How the data were processed

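RNA of 2 Ip6k1+/+ and 2 Ip6k1-/- MEF lines was measured on single-colour Agilent arrays. Spot intensity was deposited on a linear scale as Feature Extraction 10.5.1.1 wrote it (mean, local background and background-corrected signal, with a surrogate for low signals). The authors also deposited log2 values shifted by the 75th percentile in GeneSpring, which lie 0.08 to 0.11 above the values used here on each array. Here log2 of the corrected signal was shifted by the 75th percentile of 43379 spots that are not controls. Spots with an outlier flag (96 to 133 per array) were left out. Genotypes were compared by the fold rule and with limma 3.58.1 (lmFit and eBayes with a variance trend, R 4.3.3), adjusted over 21573 probes. Both were also run on simulated arrays with known changes, where the check covered the mean estimated change and not the calls. The number of arrays limits the precision. The sample labels call the lines only biological replicates. Limma p-values set a genotype difference against the spread between these lines of 1 litter, estimated with help from all probes tested. They do not cover the spread between litters. The members, gene lists and tests were chosen with earlier results of these data known. Named are all members, list genes that were called and up to 4 further of the brightest per list, and 6 genes with a pattern like Edn1. Itpr2, Gata2 and Col3a1, all lower in Ip6k1-/- MEFs, were singled out in addition after their values were seen. Some further list genes are named for their detection or their pattern over the lines. Alternatives were other background corrections and normalizations, filters, a floor, the deposited table, other test statistics, blocking on the replicate number, and omission of single lines. Scanning and slide were shared by all arrays.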

Additional observations from a re-analysis of the deposited data

How the results depend on the processing

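The Edn1 difference lay between 1.60 with normexp and 3.06 without Ip6k1-/- replicate 1. It met the fold rule in every setting to which the rule was applied, which leaves out the replicate block. Leaving out 1 line gave 1.89 to 3.06, and could not change the sign because the genotypes did not overlap. The set was chosen by this difference, so the settings describe it and do not test it. The labels do not pair the lines. With a replicate block the Edn1 difference stayed 2.47 by construction and 3 probes were called lower, and the deviations of the replicate 1 lines from their genotype means correlated at 0.48 between the genotypes over the probes tested.

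The fold rule called 54 probes higher and 190 lower with normexp, 404 and 949 without a filter, 122 and 241 with probes well above background on all 4 arrays, and 397 and 887 on the mean difference alone, which also let Ednra and Ece2 pass, so that 3 members did. Leaving out 1 line gave 271 to 1324 higher and 865 to 1340 lower, and 1 to 3 members: Ednra passed without Ip6k1+/+ replicate 1 or Ip6k1-/- replicate 2, and Ece2 and Edn2 without Ip6k1-/- replicate 1. Limma called 0 probes lower with normexp, quantile normalization, a floor on dim values or any line left out, and 1 without a filter or with the stricter one. A plain t-test per probe, which the study's methods do not name for the arrays, called 0 after Benjamini-Hochberg adjustment, and 452 higher and 397 lower at an unadjusted p of 0.05. The Ece2 differences on A_51_P505472 and A_52_P271572 ranged from -2.14 to 0.12 and from -3.32 to 0.070 with a line left out, positive without Ip6k1-/- replicate 2. The cause of these changes was not tested. Dim probes limit what can be measured: 7 of the 15 endothelin probes were not well above background in any line.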
